A study of Saccharomyces cerevisiae with 6 samples.

Results

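Nuclear tRNA genes of budding yeast were examined for how often they contact each other and the ribosomal DNA. All 275 nuclear tRNA genes of the R64 annotation, which is the sacCer3 assembly, were taken out of 6413 annotated nuclear genes, and each was placed in the 10 kb bin of the contact map that holds its midpoint. They fell into 228 of 1216 nuclear bins, called tRNA bins here, of which 188 held 1 gene, 33 held 2 and 7 held 3. The study measured contacts by Hi-C, in which chromatin is fixed, cut with the restriction enzyme DpnII and religated, so that fragments that were close in the nucleus are read as pairs. Maps of 2 replicates of 1 strain were used, and the other 4 samples in the labels were not analysed here. The strain, yMD291, is haploid MATa. Its nutrient markers are ade2-1, trp1-1, leu2-3,112, ura3-1 and his3-11,15, and it also carries bar1, can1-100, fpr::NAT and tor1-1. It carries constructs with the REV1 promoter that encode tetR-mCherry and LacI-GFP at HIS3, and LacI and tetR at ADE2, and chromosome XV holds arrays of operator sites, LacO at 497047 and TetO at 834487. Both cultures were grown without methionine, so there is no second condition, and tRNA bins are set here against the other bins of the same maps.

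A tRNA carries 1 amino acid to the ribosome and reads its codon. Its gene is short, and RNA polymerase III starts it from promoter elements inside the gene, the A box and the B box, which the factor TFIIIC binds. Yeast tRNA genes are scattered over all chromosomes. In situ hybridisation has placed many of them near the nucleolus, where the rDNA is transcribed, and some near centromeres, which are clustered in the yeast nucleus. Ty elements, the retrotransposons of yeast, insert preferentially next to them, so their surroundings are rich in Ty sequence and in solitary Ty long terminal repeats (LTRs).

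The family repeats a small number of sequences many times. The 275 genes were 71 to 133 bases long with a median of 73, 60 of them had an intron, and they made up 20 amino acid families. After introns were left out, they held only 56 different sequences, and 254 genes shared theirs with at least 1 other gene. The B box core GTTCNANNC was found on the gene's own strand in 270 genes (98.2%), with its last match always ending 12 bases before the end of the gene. The same letters, on either strand, were in 3.81% of 120705 windows of 100 bases tiled over the genome. The 3 largest identical sets are shown first, since they account for the highest copy numbers, with the B box core in capitals. They encode tRNA-Gly (16 copies, the example at chrII:197629-197699, minus strand), tRNA-Asp (15 copies, chrII:405960-406031, plus strand) and tRNA-Lys (14 copies, chrIII:151284-151356, minus strand).
YNCB0005C: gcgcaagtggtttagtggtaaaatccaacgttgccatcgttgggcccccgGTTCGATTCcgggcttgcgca
YNCB0016W: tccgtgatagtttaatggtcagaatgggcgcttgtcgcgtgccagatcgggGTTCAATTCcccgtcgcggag
YNCC0009C: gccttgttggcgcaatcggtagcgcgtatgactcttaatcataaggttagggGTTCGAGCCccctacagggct

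The 5 genes without this core were IMT1, IMT2, IMT3, IMT4 and YNCC0008W, and all 5 had 1 identical sequence of 72 bases. They encode the initiator tRNA-Met, which starts every protein. It is set beside EMT2, 1 of 5 identical genes of an elongator tRNA-Met, which adds methionine inside proteins. IMT1 lies at chrXV:710201-710272 and EMT2 at chrXV:976421-976493, both on the plus strand.
IMT1: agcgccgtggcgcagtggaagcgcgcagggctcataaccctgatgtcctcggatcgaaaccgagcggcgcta
EMT2: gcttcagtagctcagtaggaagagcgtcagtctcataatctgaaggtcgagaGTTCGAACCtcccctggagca

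The sequences that follow belong to pairs of bins with high contacts. TRN1 (chrI:139152-139254) and YNCL0001W (chrXII:92548-92650), both tRNA-Pro genes on the plus strand with an intron, differ at 1 of 103 positions. YNCG0028W (tRNA-Leu, chrVII:700675-700756, plus strand), YNCG0029C (tRNA-Lys, chrVII:700953-701048, minus strand) and YNCG0030C (tRNA-Cys, chrVII:707108-707179, minus strand) share a bin, and YNCL0035C (tRNA-Ala, chrXII:656934-657006, minus strand) lies in the bin with which it had its highest value.
TRN1: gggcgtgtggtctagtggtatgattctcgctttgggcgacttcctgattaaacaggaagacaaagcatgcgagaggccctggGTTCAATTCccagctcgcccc
YNCL0001W: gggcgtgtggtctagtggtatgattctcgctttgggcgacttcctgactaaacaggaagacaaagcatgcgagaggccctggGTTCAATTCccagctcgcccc
YNCG0028W: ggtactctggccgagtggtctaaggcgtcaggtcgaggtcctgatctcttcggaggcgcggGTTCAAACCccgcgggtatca
YNCG0029C: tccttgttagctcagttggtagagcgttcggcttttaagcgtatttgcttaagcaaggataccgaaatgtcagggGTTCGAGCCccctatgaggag
YNCG0030C: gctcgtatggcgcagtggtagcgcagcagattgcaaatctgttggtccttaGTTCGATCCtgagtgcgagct
YNCL0035C: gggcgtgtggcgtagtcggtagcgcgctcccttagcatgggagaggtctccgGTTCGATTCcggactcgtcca

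The maps hold 3760159 contacts in replicate 1 and 3518507 in replicate 2, of which 1004871 and 931315 join different chromosomes. A bin was kept if, in both maps, it had a value with at least a 0.5 share of the bins of other chromosomes. This left 196 tRNA bins with 237 genes and 890 other bins, while 32 tRNA bins with 38 genes were not kept. The loss was greatest beside centromeres, where 9 of 20 tRNA bins within 20 kb were kept (45%), against 31.8% of the other bins there. Kept tRNA bins had a median of 6327 and 5764.5 contacts in the 2 maps, against 6502.5 and 6043.5 for the other bins.

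The genes were not spread evenly along the chromosomes. Of the 275 genes, 114 (41.5%) lay within 100 kb of their centromere and 26 within 20 kb. tRNA bins made up 31.25% of all bins within 20 kb of a centromere, 30.2% at 20 to 50 kb, 23.6% at 50 to 100 kb and 17.0% beyond 500 kb. Chromosome VII held the most genes (36) and chromosome I the fewest (4). A full-length Ty element overlapped 19.7% of tRNA bins and 2.79% of other bins, and an LTR 69.3% of tRNA bins and 4.76% of other bins. Among kept bins these shares were 13.8% against 1.80% for Ty elements and 65.3% against 3.26% for LTRs.

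Between chromosomes, tRNA bins were in contact with each other slightly more often than other bins at the same distances from their centromeres in the deposited balance. The value used is observed over expected (O/E), the balanced signal of a bin pair over the mean of all pairs between chromosomes that share both bins' classes of distance to the centromere and whether a bin lies in the last 30 kb of its chromosome. The 17703 pairs of tRNA bins had a mean O/E of 1.066 and 1.060 in the 2 maps (1.063 ± 0.00366, SD, n = 2 maps). Pairs of a tRNA bin with another bin had 1.012 and 1.014, and pairs of other bins 0.992 and 0.991. The excess of the tRNA pairs over the other pairs was larger than the spread between the maps. The median O/E of tRNA pairs was 0.897 and 0.869, against 0.849 and 0.837 for pairs of other bins. A tRNA pair had on average 3.33 contacts in both maps together, and 14.0% of tRNA pairs had none. In both maps 4039 pairs (22.8%) were above 1, against 20.4% of all pairs, and 5697 (32.2%) were below 1, against 33.7% of all pairs.

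The size of this excess depended on how bins were balanced. When the maps were balanced again on contacts between chromosomes alone, tRNA pairs had 1.011 and 1.003 and pairs of other bins 1.003 and 1.003, which did not differ beyond the spread between the maps. In that balance pairs of distal tRNA bins, taken alone, had 1.007 and 0.989, against a mean of 1.003 for distal pairs of other bins. A double ratio, the value of tRNA pairs times that of other pairs over the square of the mixed pairs, removes what is common to all contacts of tRNA bins. It was 1.032 and 1.022 in the deposited balance and 1.029 and 1.019 in the one between chromosomes.

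In the deposited balance, tRNA pairs were above other pairs both near centromeres and in the arms when bins were split at 100 kb. Where both bins lay within 100 kb of their centromere (proximal), 1897 tRNA pairs had an O/E of 1.056 and 1.060, against 0.982 and 0.988 for pairs of other bins. Pairs of a proximal and a distal tRNA bin had 1.061 and 1.055 (7880 pairs), against 0.993 and 0.995 for other bins, and 7926 pairs of distal tRNA bins had 1.072 and 1.066, against 0.991 and 0.989. Without bins that overlap a full-length Ty element the 3 classes differed more, with means of 1.079 (both proximal), 1.010 (proximal with distal) and 1.049 (both distal) for tRNA pairs, against 0.987, 0.994 and 0.987 for other pairs. The double ratio, with Ty bins included, was 1.002 and 1.031 in pairs of proximal bins and 1.030 and 1.006 in pairs of distal bins. In each of these classes it was thus close to 1 in 1 map. Balanced between chromosomes, it was 1.000 and 1.026 in proximal pairs and 1.026 and 1.001 in distal pairs. The signal itself differed far more with position than with tRNA genes. As a level relative to the mean of all pairs between chromosomes, it was 2.56 in proximal tRNA pairs and 2.23 in proximal pairs of other bins, and 0.697 and 0.688 where 1 bin was proximal and 1 distal.

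**Figure D1:**
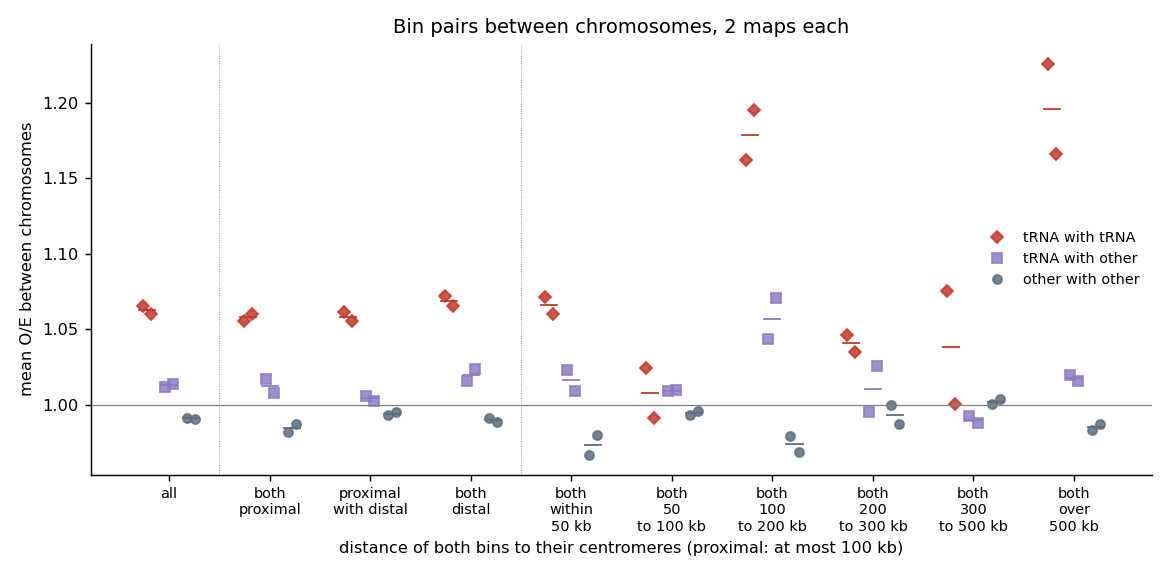
Mean O/E of bin pairs between chromosomes (vertical axis, no unit) by the distance of both bins to their centromeres. Each class shows pairs of tRNA bins, pairs of a tRNA bin with another bin and pairs of other bins, with 1 point per map and a short line at the mean; tRNA pairs are highest at 100 to 200 kb and beyond 500 kb, where both maps lie above 1.15.

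Finer classes showed where the values stood apart. Both bins at 100 to 200 kb from the centromere gave 1.162 and 1.195 for 622 tRNA pairs, against 0.979 and 0.969 for other pairs, and 32.3% of these tRNA pairs were above 1 in both maps. Beyond 500 kb, 265 tRNA pairs had 1.226 and 1.166, against 0.983 and 0.987. At 50 to 100 kb the tRNA pairs had 1.024 and 0.992, on both sides of 1, and at 300 to 500 kb 1.076 and 1.001. Right beside the centromeres the order was the opposite, with 0.887 and 0.959 in 36 tRNA pairs within 20 kb, against 1.053 and 1.022 in pairs of other bins. With no filter on bins, 184 such tRNA pairs had 0.722 and 0.735, and pairs of other bins, which then include the centromere bins themselves, had 1.187 and 1.187.

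Pairs at matching distances from their centromeres had the higher values, in tRNA bins and other bins alike. With a difference of at most 20 kb between both distances, 1368 tRNA pairs had 1.153 and 1.156, against 1.031 and 1.030 for other pairs. Where they differed by 20 to 100 kb, tRNA pairs had 1.132 and 1.127, against 1.022 and 1.019. Beyond 100 kb of difference the tRNA pairs had 1.031 and 1.025, against 0.977 and 0.977.

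Over all tRNA pairs, Ty elements and shared sequence moved with the excess. The 4556 tRNA pairs in which a bin overlapped a full-length Ty element had an O/E of 1.160 and 1.130, and the 13147 pairs without one had 1.033 and 1.036. Among pairs of proximal tRNA bins it was the other way round, since those without such an element had 1.075 and 1.083, against 1.056 and 1.060 for all of them. Pairs whose bins share an identical word of 50 bases, on either strand, had 1.118 and 1.126 (2038 pairs), and pairs without such a word 1.059 and 1.052. With neither, 12087 tRNA pairs had 1.027 and 1.033, against 0.990 and 0.988 for such pairs of other bins. The Ty elements are those of the reference, since no source used here gives the strain's own insertions, and their part in the values was not tested.

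The contact map averaged around tRNA pairs had its highest value at the centre. Over a square reaching 70 kb to each side, the centre had 1.066 and 1.063 and the mean of the surrounding squares was 1.005 and 1.004. None of the 224 surrounding squares reached the centre in the mean of the maps. Without Ty elements and shared words, the centre was 1.022 and 1.028 times its surroundings, and 4 of the 224 squares were at or above it. Pairs of other bins had no such peak, with a centre at 0.988 and 0.987 times its surroundings.

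**Figure D2:**
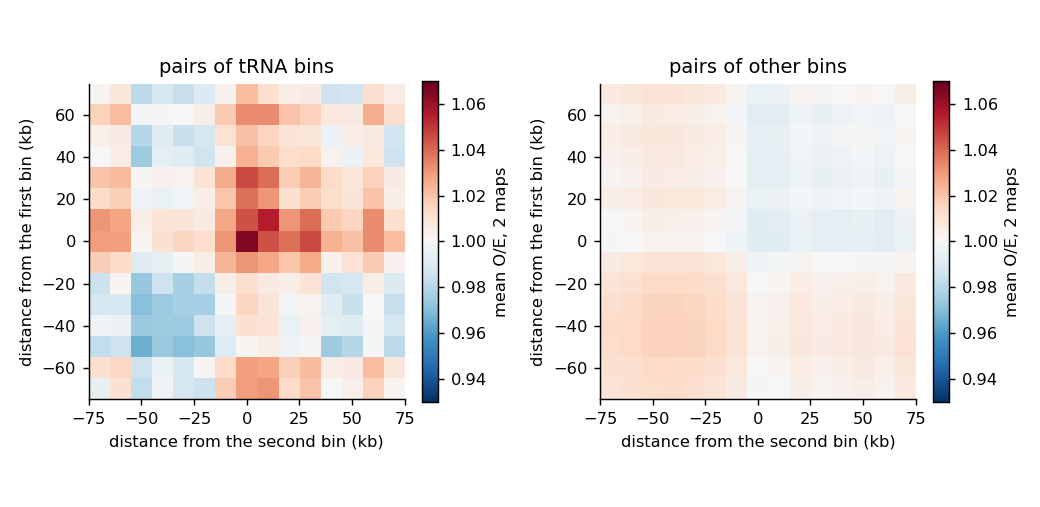
Mean O/E over both maps (colour) around pairs of tRNA bins and around pairs of other bins on different chromosomes, by distance from the first and the second bin in kb. The central square of the tRNA pairs is the highest of that panel, and a band of higher values runs along both axes through it.

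Single tRNA bins differed widely and alike in both maps, as did other bins. The O/E of other bins with tRNA bins ran from 0.632 to 2.21, with r = 0.782 and rho = 0.727 between the maps. The O/E of a tRNA bin with the tRNA bins of other chromosomes had a lowest value of 0.707, a median of 1.06 and a highest value of 1.90 (means of the maps), and the maps correlated with r = 0.831 and rho = 0.773 over 196 bins, which share libraries and partners. Much of this was common to all partners of a bin, and the ratio of its O/E with tRNA bins to its O/E with other bins ran from 0.857 to 1.495 with r = 0.411 and rho = 0.322 between the maps. This ratio was above 1 in both maps in 100 tRNA bins (51.0%), against 37.2% of the other bins. It was below 1 in both in 28 (14.3%), against 17.6%. The O/E with tRNA bins was above 1 in both maps in 108 tRNA bins (55.1%), against 39.4% of the other bins. That O/E was below 1 in both in 49 (25%), against 38.0%. The 27 kept bins with a full-length Ty element had a median of 1.11 and the 169 without one 1.05. Bins with 3, 2 and 1 tRNA genes had medians of 1.18 (7 bins), 1.09 (27 bins) and 1.05 (162 bins).

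**Figure D3:**
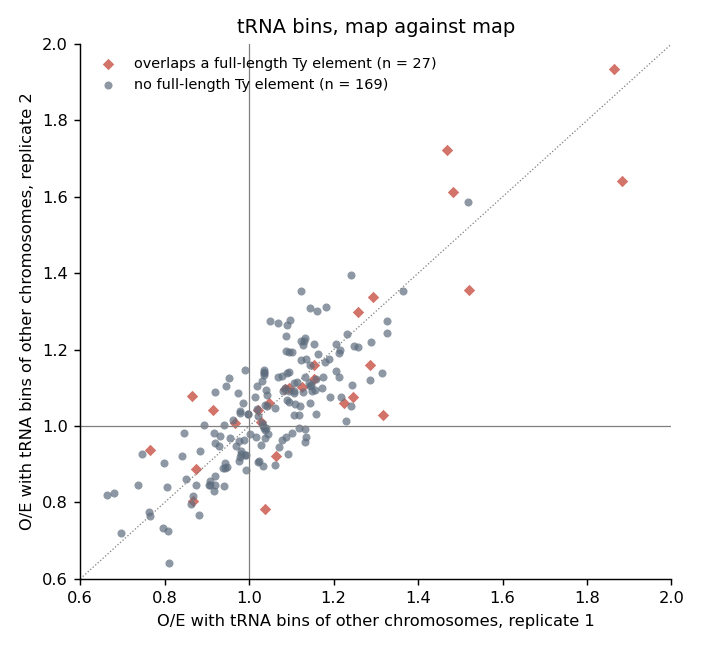
O/E of each kept tRNA bin with the tRNA bins of other chromosomes, replicate 1 on the horizontal and replicate 2 on the vertical axis, with diamonds for the 27 bins that overlap a full-length Ty element and circles for the other 169. Most bins lie between 0.8 and 1.3 in both maps, and 5 of the 6 highest points are Ty bins.

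The bin with the highest value held YNCG0028W, YNCG0029C and YNCG0030C together with the element YGRWTy3-1, with an O/E of 1.86 and 1.94. The next were the bins of EMT2 (1.88 and 1.64), YNCL0035C (1.47 and 1.72) and the tRNA-Ala gene YNCH0006C (1.52 and 1.59). The bins of SUP53, a tRNA-Leu gene (1.48 and 1.61), and of SUF1 and YNCO0002W, which encode tRNA-Gly and tRNA-Thr (1.52 and 1.36), followed. Of these 6 bins only that of YNCH0006C overlaps no full-length Ty element. Part of these values came from single partners, since the bin of YNCL0035C had 1.02 without its highest partner and that of YNCG0028W had 1.30. Most of these bins were also high with other bins, with a mean O/E of 1.30 for the bin of YNCG0028W, 1.45 for EMT2, 1.35 for YNCH0006C, 1.39 for SUP53 and 1.27 for SUF1 and YNCO0002W, while that of YNCL0035C had 1.067. As contacts over expected contacts, SUP53 with tRNA bins had 1.047 (95% exact Poisson interval 0.984 to 1.113). The remaining bins of the highest 10 were those of SUP19 (tRNA-Ser, 1.36 and 1.35), YNCG0041W and YNCG0042C (1.24 and 1.39), YNCG0022W and YNCG0023C (1.29 and 1.34) and YNCO0031W (1.33 and 1.28). With other bins the last 2 had 1.324 and 1.373, above their own means of 1.316 and 1.301 with tRNA bins.

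Chromosome XII held 3 of the 5 lowest bins. YNCL0009C, a tRNA-Gln gene whose bin borders the rDNA, had 0.695 and 0.719, YNCL0036C (tRNA-Val) 0.809 and 0.642, and YNCL0008W (tRNA-Asp) 0.679 and 0.825. The others were the bin of YNCJ0018W and YNCJ0019C on chromosome X (0.664 and 0.819) and that of YNCK0016W on chromosome XI (0.797 and 0.733). All 5 were low with other bins too, with means of 0.641 (YNCL0009C), 0.776 (YNCL0036C) and 0.727 (YNCL0008W). The bin of YNCJ0018W and YNCJ0019C had 0.751 with other bins and that of YNCK0016W 0.839. By chromosome, the mean O/E of tRNA pairs was lowest for I (0.965 and 0.883) and XII (0.942 and 0.972) and highest for III (1.211 and 1.225), while pairs of other bins with chromosome III had 0.840 and 0.833. Only 4 tRNA bins of chromosome III were kept, that of SUP53 among them. The order rested on the mean over pairs. As contacts over expected contacts, which gives pairs with many contacts more weight, XII was still the lowest (0.956, 95% exact Poisson interval 0.935 to 0.978), but I had 1.051 (1.003 to 1.101), III had 1.044 (1.008 to 1.080) and VIII was the highest (1.128, 1.098 to 1.158).

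Clusters of tRNA genes and amino acid families gave these values. Of the 7 bins with 3 tRNA genes, 5 lay above 1 in both maps beside that of YNCG0028W, from 1.04 and 1.14 in the bin of SUP7, YNCJ0011W and YNCJ0012W to 1.26 and 1.30 in that of YNCN0010C, YNCN0011W and YNCN0012C. Between them were the bin of YNCE0008C, YNCE0009C and YNCE0010W (1.09 and 1.24), that of YNCE0021C, YNCE0022C and YNCE0023W (1.13 and 1.23) and that of YNCG0031W, YNCG0032W and YNCG0033W (1.25 and 1.21). The bin of YNCJ0013C, YNCJ0014C and YNCJ0015W had 0.920 and 0.846. The 1392 pairs whose bins encode a shared amino acid had 1.096 and 1.037, and the 16311 pairs with different amino acids 1.063 and 1.062, which did not differ beyond the spread between the maps. Among the 20 families, same-family pairs were highest for tRNA-Pro (1.491 and 1.332, 49 pairs) and lowest for tRNA-Gln (0.838 and 0.882, 34 pairs). The tRNA-Pro value included 2 called pairs, that of TRN1 with YNCL0001W and that of the bin of SUF10 with YNCO0011W. Its 16 pairs without a shared word had a mean of 1.192, against 1.411 for all of them. Same-family pairs of 8 more families were above 1 in both maps, those of tRNA-Ala (1.114 and 1.0701), tRNA-Arg (1.101 and 1.105), tRNA-Glu (1.226 and 1.0701), tRNA-Ile (1.004 and 1.035), tRNA-Leu (1.0995 and 1.0426), tRNA-Lys (1.031 and 1.044), tRNA-Ser (1.105 and 1.163) and tRNA-Tyr (1.198 and 1.093). Below 1 in both were also those of tRNA-Asp (0.997 and 0.969), tRNA-His (0.965 and 0.868) and tRNA-Val (0.940 and 0.933). The other 7 families, tRNA-Asn, tRNA-Cys, tRNA-Gly, tRNA-Met, tRNA-Phe, tRNA-Thr and tRNA-Trp, had 1 map on each side of 1.

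Pairs of the initiator genes, alike in sequence, held too few contacts to be told from their expectation. The bins of IMT4 (1.09 and 1.26), IMT1 (1.04 and 0.781), IMT2 (1.03 and 0.994) and IMT3 (0.805 and 0.840) differed in their O/E with all tRNA bins. Among the 6 pairs of these 4 bins, IMT4 with IMT3 had 4 contacts against 4.39 expected, IMT3 with IMT2 had 2 against 1.93, and the other 4 pairs had none against 0.563 to 2.12 expected. The bin of YNCC0008W was not kept.

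Few single pairs of tRNA bins passed a test. A pair was called where its contacts, summed over the maps, exceeded those expected by a one-sided exact Poisson test with Benjamini-Hochberg adjustment over all 544303 pairs between chromosomes, and its O/E was above 1 in both maps. Of 17703 tRNA pairs 27 were called (0.153%), against 0.0412% of all pairs. Without replicate 1 the test called 14 tRNA pairs (0.0791%, against 0.0176% of all pairs) and without replicate 2 it called 15 (0.0847%, against 0.0197%). When bins with a full-length Ty element were left out, 10 were called (0.0761%, against 0.0219%). A negative binomial test, which allows extra spread of counts (dispersion 0.103), called 18 tRNA pairs (0.102%, against 0.0202% of all pairs). At an adjusted p under 0.01 the Poisson test called 22 (0.124%, against 0.0290%). At an unadjusted p under 0.05, 961 tRNA pairs (5.43%) were above their expectation, against 4.3% of all pairs. Downwards none was called, among tRNA pairs or all pairs, while 271 tRNA pairs (1.53%) had an unadjusted p under 0.05 in that direction, against 2.01% of all pairs. The 27 pairs had O/E values from 2.27 to 105.4 and 945 contacts, 1.60% of the contacts of all tRNA pairs. In 16 of them a bin overlapped a full-length Ty element, in 9 the bins shared a word of 50 bases, and 6 had neither. Among pairs with neither, 0.0496% of tRNA pairs and 0.0242% of all pairs were called, and among pairs with either, 0.374% and 0.238%.

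The highest pair joined the bin of YNCG0028W to that of YNCL0035C. It had 73 contacts in replicate 1 and 79 in replicate 2, 152 in all against 1.45 expected, with an O/E of 98.5 and 112.3 (adjusted p = 6.61e-239, one-sided exact Poisson test). The reference has YGRWTy3-1 in the first bin and YLRWTy1-3 in the second, and the bins share no word of 50 bases. The 8 pairs around it had a median O/E of 23.2, so the pairs next to it were high as well. The bin of YNCG0028W was also called with those of YNCL0034W (11.5 and 13.5) and YNCL0036C (7.45 and 13.9). These lie to either side of YNCL0035C, and values fell with distance from it. The 2 further calls may therefore not be separate from the highest pair.

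Several high pairs had a higher neighbour. SUP53 with YNCO0018W, a tRNA-Asn gene, had 40 and 47 contacts and an O/E of 25.5 and 30.1 (87 contacts against 3.13 expected, adjusted p = 1.09e-86, one-sided exact Poisson test). With the expectation taken over all bins with a value, that pair had 35.1, and the pair of the SUP53 bin with the next bin of chromosome XV, in which the labels place the LacO array, had 102.9. The called pair of SUP53 with SUF11 (5.03 and 8.49) lies on the same side of the array, farther away. The SUP53 bin also holds LEU2, a leucine synthesis gene that the strain carries as leu2-3,112, and the element YCLWTy2-1. TRN1 with YNCL0001W had 47 and 37 contacts and an O/E of 14.5 and 11.8 (84 against 6.37 expected). On the wider expectation it had 15.997, and the pair of the next bin of chromosome I with the same partner had 49.5. The longest run of identical bases in these bins, 236 bases, lies in SSA1 and SSA2, which encode related Hsp70 chaperones, and not in the tRNA genes. Of the 27 called pairs, 14 were the highest of their own square of 9 pairs and 13 had a higher neighbour.

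The other pairs of the highest 10 had from 6 to 84 contacts. YNCC0010C (tRNA-Gln) with SUF1 and YNCO0002W had an O/E of 17.4 and 22.3 (32 contacts against 1.62 expected), CDC65 (tRNA-Gln) with SUF6 (tRNA-Gly) 19.1 and 18.8 (67 against 3.54), and YNCH0006C with YNCN0009W (tRNA-Pro) 11.6 and 14.7 (84 against 6.40). In the first of these 3 the longest shared run of 329 bases lies in YOLWTy1-1 on chromosome XV, in the second the run of 127 bases lies in Ty4 LTRs and in the third the run of 155 bases in Ty3 LTRs. YNCB0017C and YNCB0018W with SUF1 and YNCO0002W had 14.3 and 15.3, YNCG0011W (tRNA-His) with YNCH0004C and YNCH0005W 16.04 and 12.45, and YNCC0010C with YNCK0021W (tRNA-Lys) 15.7 and 10.8, with no shared word. On the wider expectation the pair of YNCG0011W had 14.5 on 25 contacts. The pair of its bin with the adjoining bin that starts at chrVIII:120001 was higher, with 18.1 on 28 contacts. YNCL0002C (tRNA-Ser) with EMT2 rested on 2 and 4 contacts, with an O/E of 11.2 and 25.2 (adjusted p = 0.00552, one-sided exact Poisson test). The bin of SUF1 and YNCO0002W took part in 5 called pairs and that of YNCG0011W in 4.

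Within chromosomes, taken over all positions, tRNA bins did not contact each other more often than other bins. The expectation here is the mean of all pairs at the same distance, and pairs at least 20 kb apart were used. It does not match distance to the centromere, unlike the one between chromosomes. Of the 1374 tRNA pairs, 566 joined a proximal and a distal bin, against 8588 of 29718 pairs of other bins. Such pairs had a mean O/E of 0.650 in tRNA bins and 0.652 in other bins. Values and calls over all pairs depend on this mix. Split by proximal and distal bins, below, tRNA pairs were not lower than other pairs beyond the spread between the maps. The 1374 tRNA pairs had an O/E of 0.987 and 0.971 (0.979 ± 0.0109, SD, n = 2 maps), against 1.004 and 1.003 for pairs of other bins. By the same Poisson test over all pairs within chromosomes, 68 tRNA pairs (4.95%) were called above their expectation, against 4.54% of all pairs, and 92 (6.70%) below it, against 4.67% of all pairs. In both maps 360 tRNA pairs (26.2%) were above 1, against 27.8% of all pairs, and 611 (44.5%) were below 1, against 39.3%. The gap was alike in both maps at 20 to 50 kb, with 0.958 and 0.958 for 99 tRNA pairs, against 1.013 and 1.012. At 500 kb or more it was wider on average and less alike, with 0.968 and 0.907, against 1.010 and 1.009. At 50 to 100 kb tRNA pairs had 1.022 and 1.014, against 1.004 and 1.000.

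Values within chromosomes followed position along the arms in tRNA bins and other bins alike. Pairs of a proximal and a distal tRNA bin had 0.653 and 0.648 (566 pairs), against 0.649 and 0.655 for other bins, and pairs of proximal tRNA bins 1.152 and 1.094 (106 pairs), against 1.125 and 1.151, so that tRNA bins and other bins did not differ beyond the spread between the maps. Distal tRNA bins stood apart, with 1.231 and 1.213 (702 pairs), against 1.149 and 1.144. The gap was widest on opposite arms, where 182 pairs of distal tRNA bins had 1.559 and 1.538, against 1.280 and 1.266. On opposite arms, with distances to the centromere no more than 20 kb apart, 48 tRNA pairs had 1.850 and 1.741, against 1.595 and 1.630, while beyond 100 kb of difference 346 tRNA pairs had 0.825 and 0.793, against 0.913 and 0.913. Chromosomes differed in direction, from 0.796 and 0.845 for tRNA pairs of V (118 pairs) to 1.143 and 1.160 for those of VII (248 pairs) among chromosomes with at least 100 pairs. Pairs of other bins lay on the same side of 1 on V (0.874 and 0.861), on VII (1.077 and 1.053) and on XII. They lay on the other side on IV and XIII. There tRNA pairs had 0.942 and 0.888 (IV) and 0.913 and 0.828 (XIII), against 1.040 and 1.037 and 1.013 and 1.014. On XV tRNA pairs had 1 map on each side of 1.

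**Figure D4:**
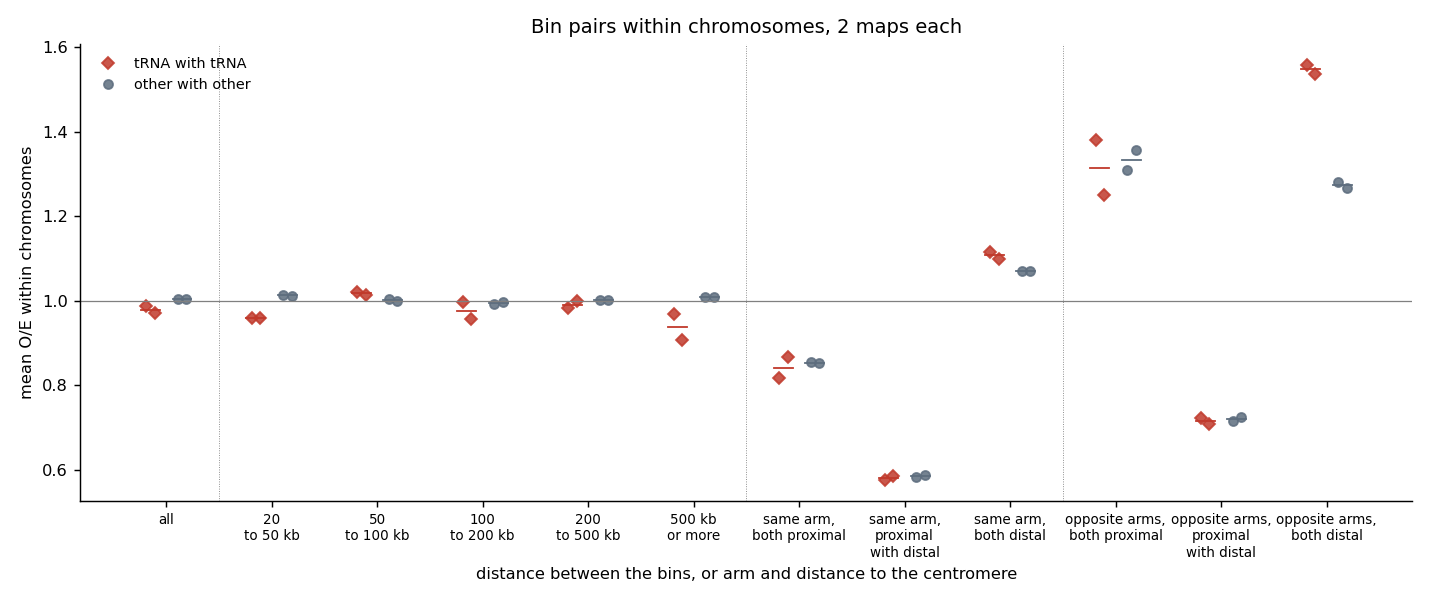
Mean O/E of bin pairs within chromosomes, at least 20 kb apart, for pairs of tRNA bins and pairs of other bins, by the distance between the bins and by arm and distance to the centromere, with 1 point per map and a short line at the mean. Both kinds of pair follow each other across the classes, and tRNA pairs stand apart on opposite arms where both bins are distal.

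The 2 highest tRNA pairs within a chromosome, among those at least 50 kb apart, both had the bin of YNCO0031W on chromosome XV. With YNCO0019W, a tRNA-Asp gene 410 kb away, it had 42 and 37 contacts and an O/E of 13.6 and 12.8 (79 contacts against 5.99 expected). With IMT1, 270 kb away, it had 39 and 41 contacts and an O/E of 10.5 and 11.4 (80 against 7.33). The YNCO0031W bin holds REV1, and per the labels the REV1 promoter is also in the constructs at ADE2 and at HIS3. The bins of ADE2 and HIS3 adjoin those of YNCO0019W and IMT1 and had the higher O/E with it, 20.8 and 17.3 (expectation over all bins with a value), against 13.8 and 10.9 for the tRNA bins. The part of the constructs in the values was not tested. The next pairs were YNCJ0008W with YNCJ0029W (3.78 and 3.56, 26 contacts), YNCG0002C with YNCG0043C (3.46 and 3.47, 19 contacts) and YNCJ0005C with YNCJ0029W (4.29 and 2.58, 20 contacts), all on opposite arms.

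The rDNA lies on chromosome XII, where the reference holds 12 rRNA genes from 451786 to 489469. The bin on its left (chrXII:440001-450000) is itself a tRNA bin, that of YNCL0009C, and passed the filter. The bin on its right (chrXII:490001-500000) holds no tRNA gene and missed the filter in replicate 2, with shares of partners of 0.526 and 0.492, and it was used all the same because both flanks were to be described. Distances across the rDNA, and to the centromere for bins to the right of it, are those of the reference. No source used here gives the length of the rDNA in the strain. Expected contacts across the rDNA, and for bins to its right, may therefore not match the strain.

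tRNA bins of other chromosomes had few contacts with either flank, as had other bins. With the left flank, 180 tRNA bins had a mean O/E of 0.696 and 0.719, against 0.645 and 0.638 for 813 other bins. As contacts over expected contacts this was 0.661 (95% exact Poisson interval 0.591 to 0.738, 319 contacts) against 0.610 (0.579 to 0.642), intervals that overlap and cover counting error only. With the right flank, tRNA bins had 0.594 and 0.493, against 0.619 and 0.617, or 0.625 (0.554 to 0.703, 282 contacts) against 0.680 (0.647 to 0.714). The low level itself depended on the balance, since in the one made between chromosomes the left flank had 1.105 and 1.126 with tRNA bins, against a mean of 1.045 with other bins, and the right flank 0.846 and 0.723, against a mean of 0.924. The next bins outwards were at a like level, with 0.678 and 0.711 for tRNA bins with chrXII:430001-440000, against 0.681 and 0.666 for other bins, and 0.669 and 0.687 with chrXII:500001-510000, against 0.707 and 0.687. Above 1 in both maps were 21 tRNA bins (11.7%) with the left flank, against 9.26% of all bins, and 12 (6.67%) with the right flank, against 8.56%. No single bin, with or without a tRNA gene, was called with either flank when Poisson p-values were adjusted over the 993 partners of that flank. With the bin inside the rDNA at chrXII:460001-470000, tRNA bins and other bins were both high, with 2.335 and 2.085 against 2.009 and 1.938. Proximal tRNA bins had 2.906 and 2.588 with it, against 3.030 and 2.672, and distal ones 2.035 and 1.820, against 1.731 and 1.739. In the 2 maps, 2287 of 3399 and 2479 of 3628 contacts of this bin joined other chromosomes. For the left flank these were 967 of 5413 and 930 of 5170. The expectation does not match this share, which enters the O/E of the bin with every partner.

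Flank contacts varied with the partner's distance to its own centromere, in a different way on each side of the rDNA. The left flank met tRNA bins within 50 kb of their centromere at 1.262 and 1.287 (30 bins), against 1.264 and 1.045 for other bins, and distal tRNA bins at 0.632 and 0.648, against 0.597 and 0.597. There was no steady trend, since contacts over expected contacts were lowest at 50 to 100 kb in tRNA bins (0.408, against 0.565 in other bins) and at 100 to 200 kb in other bins, and were 0.619 beyond 500 kb, against 0.711 in other bins. The right flank met tRNA bins within 50 kb at 0.277 and 0.140, on 6 contacts, against 0.263 and 0.362, and distal tRNA bins at 0.723 and 0.603, against 0.707 and 0.692. In single classes the tRNA bins at 100 to 200 kb had 0.667 (95% exact Poisson interval 0.528 to 0.833) of the expected contacts with the left flank, against 0.467 (0.415 to 0.525) in other bins, and in the class beyond 500 kb they had 1.11 (0.865 to 1.40) with the right flank, against 0.883 (0.793 to 0.980). Of the 14 classes of both flanks only the first of these had intervals that did not overlap, and these intervals leave out the spread between cultures.

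**Figure D5:**
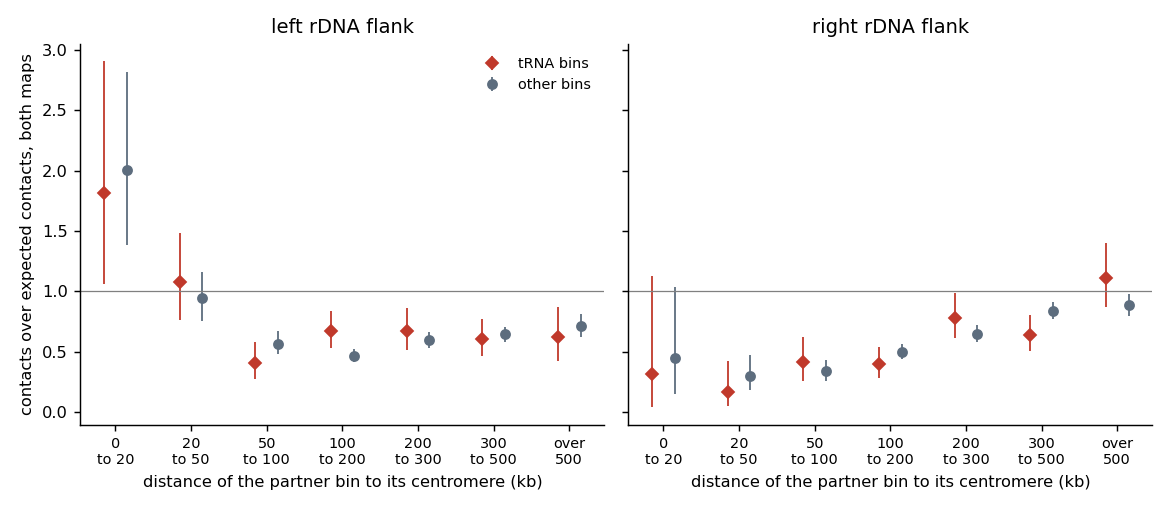
Contacts of tRNA bins and other bins of other chromosomes with the left and the right flank of the rDNA over their expected contacts (both maps summed), by the distance of the partner bin to its own centromere in kb, with bars for the 95% exact Poisson interval. Values with the left flank are highest within 20 kb of the centromere and values with the right flank beyond 500 kb, in tRNA bins as in other bins.

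Single tRNA bins reached the flanks with a handful of contacts. With the left flank the highest were the bin of YNCE0008C, YNCE0009C and YNCE0010W (O/E 4.32 and 4.59, 3 contacts in each map), that of YNCP0010W (2.88 and 4.58), YNCM0009C (3.27 and 3.38), YNCN0006W (3.62 and 2.22) and that of SUF17 and SUP3 (1.04 and 4.37). Of these 5, only YNCN0006W is distal. With the right flank the highest were those of YNCD0022C (2.48 and 1.56), YNCD0024C (1.51 and 2.47), YNCG0031W to YNCG0033W (2.26 and 1.58), YNCG0009C (1.80 and 1.89) and YNCO0029C (1.99 and 1.40), all distal. SUP61, a tRNA-Ser gene, had no contact with either flank against 4.24 and 3.501 expected. YNCM0033C and YNCK0007W had none with the left flank against 4.01 and 3.95, and YNCH0016C and YNCJ0001C none with the right against 3.78 and 3.33.

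On chromosome XII itself, tRNA bins and other bins alike met the flank on their own side of the rDNA more than the other flank. Over kept bins on the same side, tRNA bins had a mean of 1.983 and 1.976 with the left flank (4 bins), against 2.074 and 1.951 for other bins, and 1.468 and 1.224 with the right flank (11 bins), against 1.483 and 1.501. With the left flank, the 5 tRNA bins on that side had O/E values from 1.14 and 1.14 (YNCL0001W) to 3.06 and 2.72 (YNCL0007W, a tRNA-Arg gene 70 kb away), with YNCL0002C (2.38 and 2.72) and YNCL0004C (2.57 and 1.56) between them, and YNCL0008W, 20 kb away, had 1.36 and 1.32 on 745 contacts. The 13 tRNA bins beyond the rDNA had from 0 to 5 contacts with it apart from YNCL0033C (6 contacts, 0.408 and 0.434), and YNCL0032C, 150 kb away, had none against 4.92 expected. Highest among them by O/E were YNCL0039W (1.04 and 0.736, 5 contacts) and YNCL0049C (1.12 and 0.611, 3 contacts), YNCL0051C had no contact, and YNCL0034W, YNCL0035C, YNCL0036C, YNCL0047W, YNCL0050C, TRR4, the bin of YNCL0037W and YNCL0038W and that of YNCL0040W and YNCL0044W had 1 to 4. With the right flank, YNCL0009C had 4 and 4 contacts (0.0872 and 0.0893), against 90.6 expected in all at the reference distance of 50 kb. YNCL0008W had 0.149 and 0.0926 with it, YNCL0007W 0.734 and 0.249, and YNCL0001W, YNCL0002C and YNCL0004C no contact against 6.49, 7.23 and 3.16. On its own side YNCL0035C had 2.00 and 1.44 and YNCL0036C 2.01 and 1.33. Also above 1 in both maps there were YNCL0033C (1.08 and 1.51), YNCL0034W (1.19 and 1.05), YNCL0037W with YNCL0038W (1.57 and 1.05), YNCL0039W (1.94 and 1.55), TRR4 (1.95 and 1.57) and YNCL0049C (1.0704 and 1.649). YNCL0032C (1.26 and 0.482), YNCL0040W with YNCL0044W (1.80 and 0.788) and YNCL0051C (1.02 and 0.537) had 1 map on each side of 1, and YNCL0047W (0.496 and 0.976) and YNCL0050C (0.834 and 0.874) were below it. These bins include those that missed the filter. Over kept bins, the 11 tRNA bins beyond the rDNA had a mean of 0.4997 and 0.381 with the left flank, against 0.410 and 0.455 for other bins, and the 5 on the far side of the right flank had 0.194 and 0.0862 with it, against 0.252 and 0.173.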

How the data were processed

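The deposited maps, which per the submitters' processing notes were made with HiC-Pro on sacCer3, hold the balanced contact signal of each pair of 10 kb bins. The authors balanced each map by iterative correction, with 1 factor per bin that brings every bin to an equal total, so coverage differences between bins are removed and a bin with few contacts is scaled up. Read filters and iteration settings were not given in the sources used here.

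Factors were recovered, and 100% of values became whole contacts to within 0.01. O/E was computed per map in Python 3.11.15 with numpy 2.4.6, scipy 1.17.1 and pandas 2.3.3, with classes of distance to the centromere cut at 20, 50, 100, 200, 300 and 500 kb. Full-length Ty means at least 5000 bases. Depth limits single pairs to a few contacts, and p-values and intervals cover counting error only. Sequences and genes came from RefSeq's R64 files, in which 47 of the 275 genes have a symbol and 228 a locus tag only. The scripts were tested on simulated data.

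Named are the 10 highest and 5 lowest tRNA bins, the 10 highest called pairs, the 5 highest pairs within chromosomes at 50 kb or more, the 5 highest and 3 lowest bins per flank, all tRNA bins of chromosome XII, bins with 3 genes, initiator genes and families. Members and lists were chosen with earlier results of these data known. With 1 strain and 2 maps no test between groups was possible. Alternatives were no filter, other balancing, other classes, ratios of sums, wider flanks, and a negative binomial or a stricter cutoff for calls. Ty elements, shared words or a map were also left out.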

Additional observations from a re-analysis of the deposited data

How the results depend on the processing

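Of 49 settings tried over 8 results, apart from leaving out a map, 18 left the value within the spread between the maps (counts within 1.5 times) and 31 did not, and 2 changed the side of 1. The cause was not tested. Values are means of the maps. Without the filter on bins, tRNA pairs between chromosomes had an O/E of 1.09 in all, 1.08 (both proximal), 1.12 (proximal with distal) and 1.06 (both distal), and the left flank had 0.815. The calls then numbered 45 (0.187% of tRNA pairs, against 0.0827% of all pairs). Balanced on contacts between chromosomes alone, tRNA pairs between chromosomes had 1.01 (other pairs 1.00), 1.02, 1.01 and 0.998, pairs within chromosomes 0.916, the left flank 1.12 (other bins 1.05) and the right flank 0.784 (other bins 0.924), so both distal and the left flank changed side. As ratios of sums, proximal with distal had 1.08, both distal 1.06, the left flank 0.661 and the right flank 0.625. In finer classes the pairs had 1.06 in all, 1.05 (both proximal) and 1.04 (proximal with distal), and the left flank 0.741. Without shared words they had 1.06 in all, 1.05 and 1.04. Without Ty bins they had 1.03, 1.08, 1.01 and 1.05, with 10 calls (0.0761%, against 0.0219% of all pairs), 0.967 within chromosomes and 0.748 at the left flank. With 1 map left out, values ran from 1.060 to 1.066 in all, 1.056 to 1.060, 1.055 to 1.061 and 1.066 to 1.072, calls from 14 to 15 (0.0791% to 0.0847%, against 0.0176% to 0.0197% of all pairs), pairs within chromosomes from 0.971 to 0.987, the left flank from 0.696 to 0.719 and the right from 0.493 to 0.594. No paired analysis was possible because both maps analysed here belong to 1 group.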
